A study of Mus musculus with 4 samples.

Results

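Among the 24346 gene symbols in the RNA sequence data of IMQ-treated dorsal skin, 10 genes of the JAK-STAT pathway and its SOCS feedback are described here. They were listed by symbol, with earlier results of these data known. They comprise the kinases *Jak1*, *Jak2*, *Jak3* and *Tyk2*, the transcription factors *Stat3*, *Stat5a* and *Stat6*, and the feedback inhibitors *Socs1*, *Socs3* and *Cish*. Wild type male C57BL/6 mice, 8 weeks old at the start, received a high-fat, high-cholesterol diet with bile salt (NASH diet, which induces steatohepatitis) for 3 weeks, either without (Cont-IMQ group) or with 7-ketocholesterol (7KC-IMQ group), an oxidized cholesterol. Cream with 5% imiquimod (IMQ), an agonist of Toll-like receptor 7 that induces psoriasis-like dermatitis, was then applied, and dorsal skin was collected after 1 day. There were 2 libraries in each group. All 4 came from IMQ-treated skin, and vehicle-treated skin is not analysed here, so the values show what 7KC in the diet went with in inflamed skin and not the response to IMQ itself. The labels do not say whether the replicates of a group came from separate mice, and the p-values therefore measure only the spread between these samples, which may be technical.

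Cytokines that bind type I and type II receptors signal through Janus kinases, which sit on the receptor chains and phosphorylate them. STAT proteins dock there, are phosphorylated, form dimers and enter the nucleus to switch on genes, among them *Socs1*, *Socs3* and *Cish*. The proteins of these genes then bind the kinases or the receptors and end the signal, which makes the pathway self-limiting. In psoriasis-like skin the pathway carries the signals of IL-23 in T cells and of IL-22, IL-6 and IL-20 family cytokines in keratinocytes, many of them through STAT3. FPKM values show the amount of mRNA and not phosphorylation, which is the step that activates JAK and STAT proteins.

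Promoter sequences of *Stat3*, *Socs1* and *Socs3* are shown, because *Stat3* and *Socs1* had the largest fold changes of the 10 genes and *Socs3* is the feedback gene best known to be induced by STAT3. They are the bases just before the RefSeq start site in GRCm38.p6, read 5′ to 3′ on the minus strand, which carries all 3 genes. Letter patterns of 3 kinds were searched on both strands within 250 bases before each start. They were TTCNNNGAA, the core of sites bound by most STAT dimers, TTCNNNNGAA, the longer core that STAT6 binds, and GAAANNGAAA, the core of the interferon-stimulated response element, in which N is any base. Capitals mark matches.
*Socs1* (chr16:10785537-10785786): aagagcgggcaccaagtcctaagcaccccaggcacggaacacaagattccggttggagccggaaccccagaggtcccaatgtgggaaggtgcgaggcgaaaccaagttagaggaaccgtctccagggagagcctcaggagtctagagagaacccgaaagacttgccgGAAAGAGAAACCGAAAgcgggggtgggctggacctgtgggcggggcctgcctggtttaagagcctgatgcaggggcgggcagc
*Stat3* (chr11:100939541-100939790): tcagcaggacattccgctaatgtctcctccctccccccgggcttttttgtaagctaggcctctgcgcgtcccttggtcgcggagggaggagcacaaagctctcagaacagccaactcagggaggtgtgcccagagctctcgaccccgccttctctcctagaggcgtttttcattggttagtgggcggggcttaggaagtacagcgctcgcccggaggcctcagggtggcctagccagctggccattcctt
*Socs3* (chr11:117969502-117969530): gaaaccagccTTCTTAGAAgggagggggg
The *Socs1* window held GAAANNGAAA at 83 and again at 77 bases before the start, as GAAAGAGAAA and GAAACCGAAA, which overlap each other. The *Socs3* match, TTCTTAGAA, began 154 bases before the RefSeq start, and only the stretch around it is printed because the GENCODE annotation starts the gene further upstream. The *Stat3* window held none of the 3 patterns. RefSeq windows were found for 10 of the 10 genes, and 8 had no match. By GENCODE, exons cover all 250 bases of the *Cish* window and 175 and 139 bases of the *Stat5a* windows. They also cover 87 bases of the *Jak3* window and 59 of the *Jak1* window. For these genes, above all *Cish*, the lack of a match does not describe the sequence upstream of the gene. Over all 32851 windows of the same length, TTCNNNGAA occurred in 7.02%, TTCNNNNGAA in 5.85% and GAAANNGAAA in 2.98%. A match is a description of the letters and not evidence of a bound site.

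The depth of the 4 libraries was estimated from the low FPKM values at 15080000 to 16540000 mapped reads, at which the lowest value of any of the 10 genes, *Jak3* in Cont-IMQ replicate 1, corresponds to about 143 reads. All 10 passed the filter on low values (a mean of at least 0.1 FPKM), as did 15896 genes in all. The 8 keratinocyte marker genes, such as *Krt5* and *Krt14*, were present in every library with a sum between 20760 and 29210 FPKM. In the hair follicle markers the Cont-IMQ libraries lay on opposite sides of the 7KC-IMQ libraries. The 12 genes summed to 1629 FPKM in Cont-IMQ replicate 2 and to 138 in Cont-IMQ replicate 1. The sums were 494 and 438 in 7KC-IMQ replicates 1 and 2.

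*Stat3* and *Socs1* had the largest differences of the 10 genes, both higher in the 7KC-IMQ group. *Stat3* averaged 1.34-fold and *Socs1* 1.78-fold the level of the Cont-IMQ group, and in both genes every 7KC-IMQ library lay above every Cont-IMQ library. *Jak1*, *Jak3*, *Stat6* and *Socs3* differed by 0.01 to 0.13 on the log2(FPKM + 1) scale, and *Tyk2* and *Cish* had lower means in the 7KC-IMQ group. In limma across all genes, 2 of the 10 genes were higher at an unadjusted p-value under 0.05 and 0 were lower, beside 7.5% of all genes tested were higher and 5.47% lower at that threshold (13% in either direction). The 2 genes were *Stat3* and *Socs1*, and the count was 0 without either of the 7KC-IMQ libraries. None of the 10 genes passed after Benjamini-Hochberg adjustment (smallest adjusted p 0.356 in limma), and 1 gene of all those tested did (0.00629%). The groups did not overlap in 4 genes with higher values in the 7KC-IMQ group (*Jak2*, *Stat3*, *Stat6* and *Socs1*) and in 1 with lower values (*Tyk2*). With 2 libraries against 2 this is common, since 23.9% of all genes lay higher and 22.9% lower without overlap (46.8% in all), and the two-sided exact permutation test cannot go below p = 0.333. The median log2 fold change was 0.09 for the 10 genes and -0.01 for all genes tested. In whole skin, fewer cells of a type and less RNA per cell cannot be told apart.

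**Figure D1:**
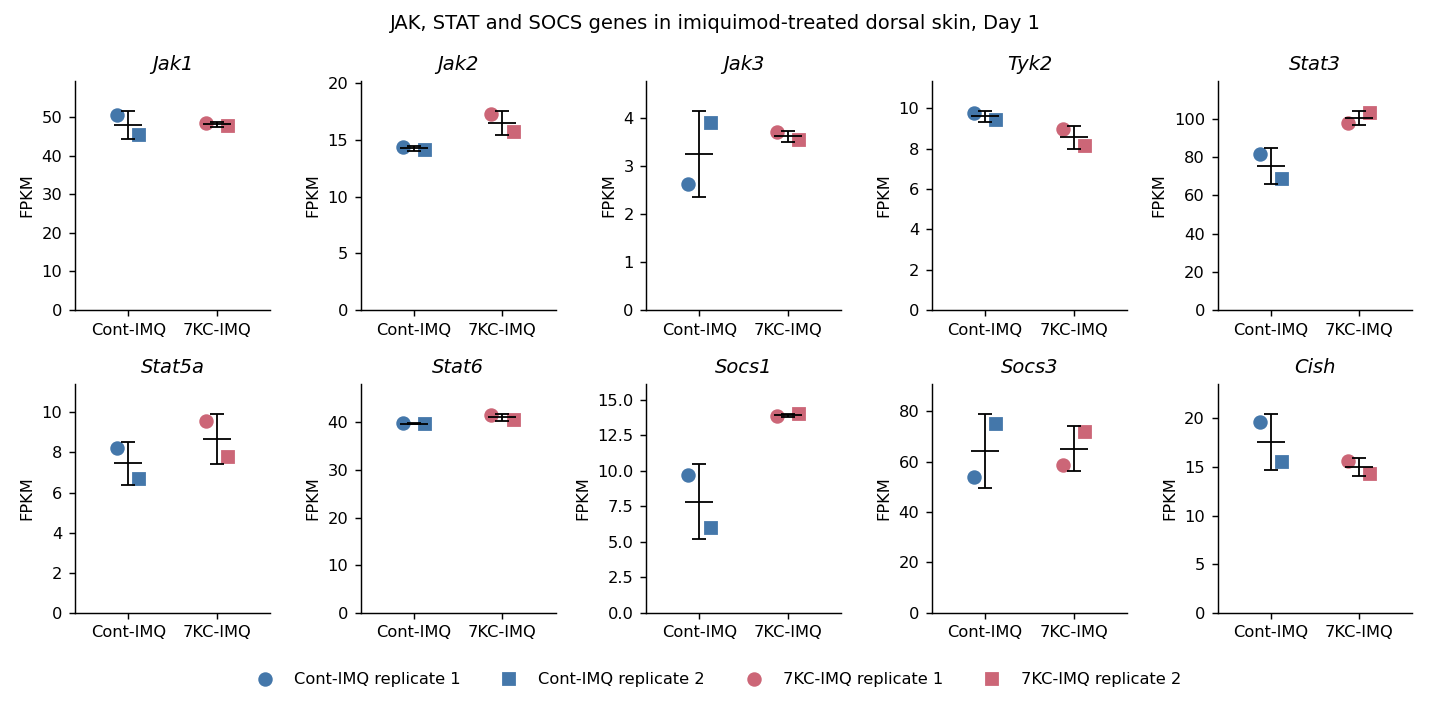
FPKM (vertical axes, from 0) of the 10 genes in each library, with circles for replicate 1, squares for replicate 2, and black lines for the group mean ± SD (n = 2). The 7KC-IMQ libraries of *Stat3* (98.1 and 103 FPKM) and *Socs1* (13.8 and 14.0) lie above both Cont-IMQ libraries, while those of *Socs3* and *Jak1* lie between them.

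Gene coordinates are those of GRCm38 (GENCODE M21). Of the kinases, *Jak1* (chr4:101152367-101265282, minus strand), which serves interferon, gp130 and common gamma chain receptors, was the most abundant. It was at 50.5 and 45.4 FPKM in Cont-IMQ skin (replicates 1 and 2 in that order, as in all values given by library) and at 48.5 and 47.6 in 7KC-IMQ skin. Both 7KC-IMQ values lay between the Cont-IMQ values, with a log2 fold change of 0.01 (95% interval -0.21 to 0.22, adjusted p = 0.989 in limma). *Jak2* (chr19:29251828-29313080, plus strand), the kinase of IL-12/IL-23, IFN-γ and growth hormone family receptors, was at 14.4 and 14.1 FPKM in Cont-IMQ skin and at 17.3 and 15.7 in the 7KC-IMQ group. Both 7KC-IMQ libraries were above the Cont-IMQ libraries, but the log2 fold change of 0.20 had an interval that includes 0 (-0.03 to 0.43, adjusted p = 0.436 in limma). *Tyk2* (chr9:21104068-21131243, minus strand), the partner of JAK2 at the IL-12 and IL-23 receptors and of JAK1 at type I interferon receptors, was at 9.78 and 9.40 FPKM in Cont-IMQ skin and at 8.96 and 8.15 in the 7KC-IMQ group. Both 7KC-IMQ libraries were below the Cont-IMQ libraries, and the log2 fold change was -0.15 (-0.40 to 0.10, adjusted p = 0.56 in limma). Of the 75-base windows of *Tyk2*, 6.67% also occur in another gene, mostly in *1700084C06Rik* on the opposite strand. *Jak3* (chr8:71676296-71690575, plus strand), which binds the common gamma chain and is mainly a kinase of lymphocytes, was at 2.62 and 3.88 FPKM in Cont-IMQ skin and at 3.70 and 3.53 in the 7KC-IMQ group. The spread between the Cont-IMQ replicates was larger than the difference between the groups, the log2 fold change was 0.13 (-0.33 to 0.59, adjusted p = 0.78 in limma), and it was -0.08 without Cont-IMQ replicate 1. Of the 75-base windows of *Jak3*, 6.01% also occur in another gene, mostly in *Insl3*, which overlaps it on the same strand.

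The order of the kinases was the same in every library. *Jak1* averaged 48.0 FPKM over the 4 libraries, *Jak2* 15.4, *Tyk2* 9.07 and *Jak3* 3.43, and the ranges of neighbours in this order did not overlap. The sum of the 4 kinases was 77.3 and 72.8 FPKM in Cont-IMQ skin and 78.4 and 75.02 in the 7KC-IMQ group, so the groups overlapped in the total. *Jak2* made up 18.7% and 19.4% of that sum in the Cont-IMQ group and 22% and 21.0% in the 7KC-IMQ group. *Tyk2* made up 12.7% and 12.9% against 11.4% and 10.9%. The ratio of *Jak2* to *Tyk2* was 1.47 and 1.5 in the Cont-IMQ group and 1.93 in both 7KC-IMQ libraries, a difference larger than the spread within either group (exact permutation p = 0.333, the smallest possible). The ratio had to separate the groups, because *Jak2* lay higher and *Tyk2* lower without overlap, and it is not a further result.

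*Stat3*, the STAT of IL-6, IL-22, IL-23 and oncostatin M, had the highest FPKM of the STAT genes described here and was above 93.4% of all genes tested. It was at 81.9 and 68.5 FPKM in Cont-IMQ skin and at 98.1 and 103 in 7KC-IMQ skin (75.2 ± 9.45 against 101 ± 3.62, mean ± SD, n = 2). All 7KC-IMQ values exceeded all Cont-IMQ values, and the gap between the nearest libraries of the groups (81.9 and 98.1) was wider than the spread within either group. The log2 fold change was 0.42 with a standard error of 0.11 (95% interval 0.13 to 0.71, unadjusted p = 0.0139, adjusted p = 0.356 in limma). Without Cont-IMQ replicate 2, the library with the high hair follicle markers and the lowest *Stat3*, the log2 fold change was 0.29 (unadjusted p = 0.0312, adjusted p = 0.353 in limma). It was 0.46 without 7KC-IMQ replicate 1 (unadjusted p = 0.0561, adjusted p = 0.66 in limma) and 0.38 without replicate 2 (unadjusted p = 0.0852, adjusted p = 0.967 in limma). Without Cont-IMQ replicate 1, the library with the lowest sum of hair follicle markers, the log2 fold change of *Stat3* was 0.55. The part of the hair follicle difference in this result was not tested.

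The other STATs of the set differed less. *Stat6* (chr10:127642986-127660957, plus strand), the STAT of IL-4 and IL-13, was at 39.9 and 39.6 FPKM in Cont-IMQ skin and at 41.6 and 40.6 in the 7KC-IMQ group. Its groups did not overlap because its replicates were so close, but the log2 fold change was only 0.05 (-0.13 to 0.23, adjusted p = 0.8 in limma) and was -0.002 after quantile normalization. *Stat5a*, which acts downstream of prolactin, GM-CSF and IL-2 family cytokines, was at 8.21 and 6.70 FPKM in Cont-IMQ skin and at 9.57 and 7.78 in the 7KC-IMQ group. The groups overlapped, with a log2 fold change of 0.19 (-0.20 to 0.59, adjusted p = 0.624 in limma). It was 0.065 without Cont-IMQ replicate 2, 0.06 without 7KC-IMQ replicate 1 and 0.32 to 0.33 on leaving out either of the others. Of the 75-base windows of *Stat5a*, 5.12% also occur in another gene, mostly in its paralog *Stat5b*, and how reads that fit both were counted is not given in the sources used here.

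*Stat5b*, *Stat5a* and *Stat3* are neighbours within 159 kb of chromosome 11 (GRCm38), with *Stat5a* on the plus strand at chr11:100859351-100885169 and *Stat3* on the minus strand at chr11:100885098-100939540. The 3′ ends of *Stat5a* and *Stat3* overlap by 72 bases. The genes of this cluster leaned different ways, though the differences between them were not tested. *Stat3* was higher in both 7KC-IMQ libraries, *Stat5a* overlapped between the groups, and *Stat5b* was lower, at 13.3 and 14.4 FPKM in Cont-IMQ skin and at 12.0 and 12.2 in the 7KC-IMQ group (log2 fold change -0.18, 95% interval -0.41 to 0.04, adjusted p = 0.453 in limma). The ratio of *Stat5a* to *Stat5b* was 0.615 and 0.465 in the Cont-IMQ group and 0.799 and 0.637 in the 7KC-IMQ group. These ratios did not overlap, though the nearest libraries (0.615 and 0.637) were closer to each other than to their own replicates.

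Of other STAT genes, *Stat2*, which acts in the type I interferon response, was at 30.2 and 20.6 FPKM in Cont-IMQ skin and at 32.9 and 25.8 in the 7KC-IMQ group. Its groups overlapped, with a log2 fold change of 0.22 (-0.36 to 0.79, adjusted p = 0.71 in limma) that was -0.05 without Cont-IMQ replicate 2. *Stat4*, a STAT of T cells and NK cells, was at 0.634 and 0.667 FPKM in Cont-IMQ skin and at 0.642 and 0.268 in the 7KC-IMQ group, also with overlap. In mean FPKM over the 4 libraries the order was *Stat3* (87.9), *Stat6* (40.4), *Stat2* (27.4), *Stat5b* (13.0), *Stat5a* (8.06) and *Stat4* (0.553), and the ranges of neighbours did not overlap.

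Of the feedback genes, *Socs1* (chr16:10782240-10785536, minus strand) differed most. Its product blocks the kinase domains of JAK1, JAK2 and TYK2 and is best known as a brake on interferon signals. It was at 9.71 and 5.94 FPKM in Cont-IMQ skin and at 13.8 and 14.0 in 7KC-IMQ skin (7.83 ± 2.66 against 13.9 ± 0.109, mean ± SD, n = 2). The 7KC-IMQ libraries were nearly equal and both above the Cont-IMQ libraries, which were far apart. The log2 fold change was 0.79 with a standard error of 0.22 (95% interval 0.21 to 1.38, unadjusted p = 0.0186, adjusted p = 0.356 in limma). Its size depended on the Cont-IMQ libraries, being 1.10 without replicate 1 and 0.48 without replicate 2, the latter with an unadjusted p of 0.0102 and an adjusted p of 0.348 in limma. Without 7KC-IMQ replicate 1 it was 0.80 (unadjusted p = 0.0879, adjusted p = 0.666 in limma) and without replicate 2 it was 0.78 (unadjusted p = 0.0918, adjusted p = 0.967 in limma). Cont-IMQ replicate 2, with the lowest *Socs1*, had the highest sum of hair follicle markers, and Cont-IMQ replicate 1 had the lowest sum. The part of that difference in this result was not tested.

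*Socs3* (chr11:117966079-117970047, minus strand), a target of STAT3 whose product binds gp130 and ends IL-6 family signals, had close means in the groups. Its FPKM was 53.8 and 74.7 in the Cont-IMQ group and 58.8 and 71.5 in the 7KC-IMQ group. Both 7KC-IMQ values lay between the Cont-IMQ values, and the log2 fold change was 0.03 with an interval of -0.47 to 0.53 (adjusted p = 0.96 in limma), so these libraries leave room for a difference of the size seen in *Stat3*. *Cish* (chr9:107296026-107302784, plus strand), a target of STAT5 whose product CIS binds activated cytokine receptors, was at 19.7 and 15.6 FPKM in Cont-IMQ skin and at 15.6 and 14.3 in the 7KC-IMQ group. The groups overlapped by a narrow margin at 15.6, and the log2 fold change was -0.21 (-0.57 to 0.14, adjusted p = 0.556 in limma). Without Cont-IMQ replicate 2 it was -0.37 (unadjusted p = 0.0295 in limma), and without Cont-IMQ replicate 1 it was -0.06. Of the 75-base windows of *Cish*, 7.93% also occur in another gene, mostly in *Gm17041* on the opposite strand.

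*Socs3* was the most abundant of the 8 SOCS genes, at 64.7 FPKM on average, ahead of *Cish* (16.3), *Socs6* (15.5), *Socs5* (12.4), *Socs1* (10.9), *Socs4* (6.63), *Socs2* (6.05) and *Socs7* (5.81). Below *Socs3*, the ranges of most neighbours in this order overlapped, and *Socs6* and *Socs5* were the only neighbours that did not. The sum over the 8 genes was 130 and 141 FPKM in Cont-IMQ skin and 133 and 148 in the 7KC-IMQ group, with overlap. *Socs1* made up 7.45% and 4.20% of that sum in the Cont-IMQ group and 10.4% and 9.44% in the 7KC-IMQ group. The other SOCS genes showed 0 calls at an unadjusted p under 0.05 among 5. *Socs2*, which restrains growth hormone signals, was at 7.57 and 5.58 FPKM in Cont-IMQ skin and at 5.57 and 5.46 in the 7KC-IMQ group (log2 fold change -0.21, adjusted p = 0.618 in limma), and without Cont-IMQ replicate 2 its log2 fold change was -0.396 (unadjusted p = 0.028 in limma), without replicate 1 -0.014. *Socs5* had a log2 fold change of 0.17, *Socs6* of 0.05, *Socs4* of -0.02 and *Socs7* of -0.09, and the adjusted p-values in limma were between 0.577 and 0.959.

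**Figure D2:**
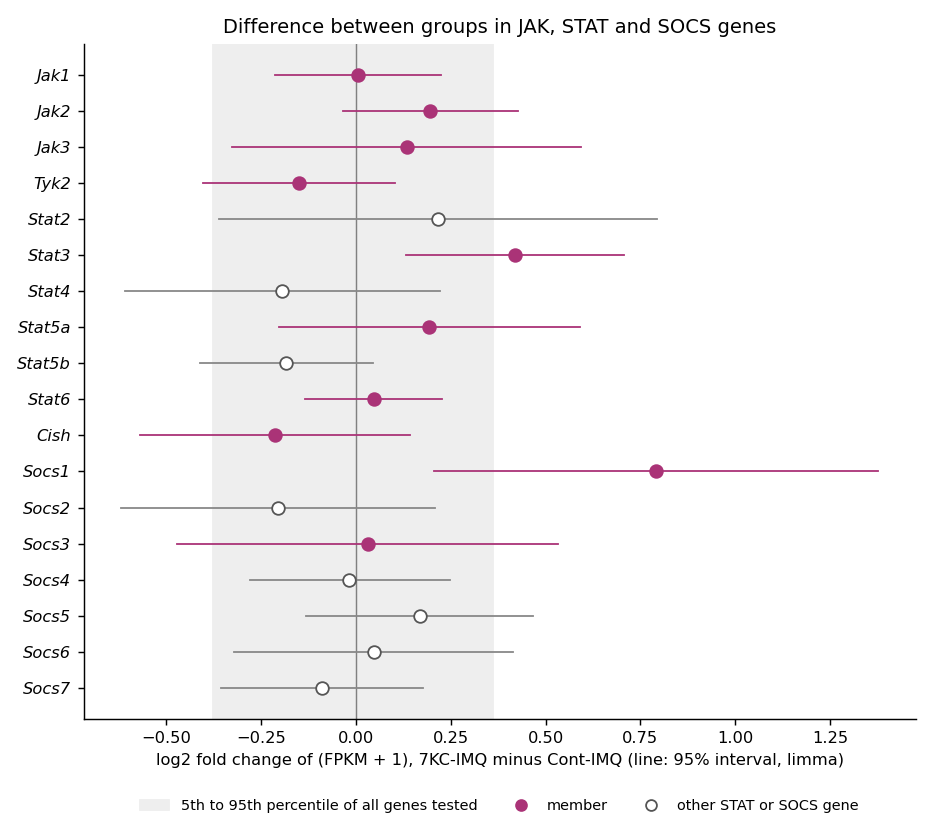
Log2 fold change (horizontal axis, 7KC-IMQ against Cont-IMQ on the log2(FPKM + 1) scale) of the JAK, STAT and SOCS genes, with 95% intervals from limma. Filled points are the 10 genes and open points other STAT and SOCS genes. The band spans the 5th to 95th percentile of all genes tested (-0.38 to 0.36). Only *Stat3* (0.42) and *Socs1* (0.79) lie beyond the band, and only their intervals leave out 0.

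Set against the STATs that induce them, the feedback genes had unlike ratios. *Socs1* per *Stat3* was 0.119 and 0.0867 in the Cont-IMQ group and 0.141 and 0.136 in the 7KC-IMQ group, so that *Socs1* was higher by more than *Stat3* was. *Socs3* per *Stat3* was 0.658 and 1.09 against 0.599 and 0.693, and overlapped. *Cish* per *Stat5a* was 2.39 and 2.32 against 1.63 and 1.84, and here the groups were well apart because *Cish* and *Stat5a*, which each overlapped between the groups, leaned in opposite directions. *Socs1* per *Socs3* was 0.180 and 0.0796 against 0.235 and 0.196. No fit over all genes bears on these ratios, and in each case the exact permutation test over 4 libraries allows no p below 0.333.

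**Figure D3:**
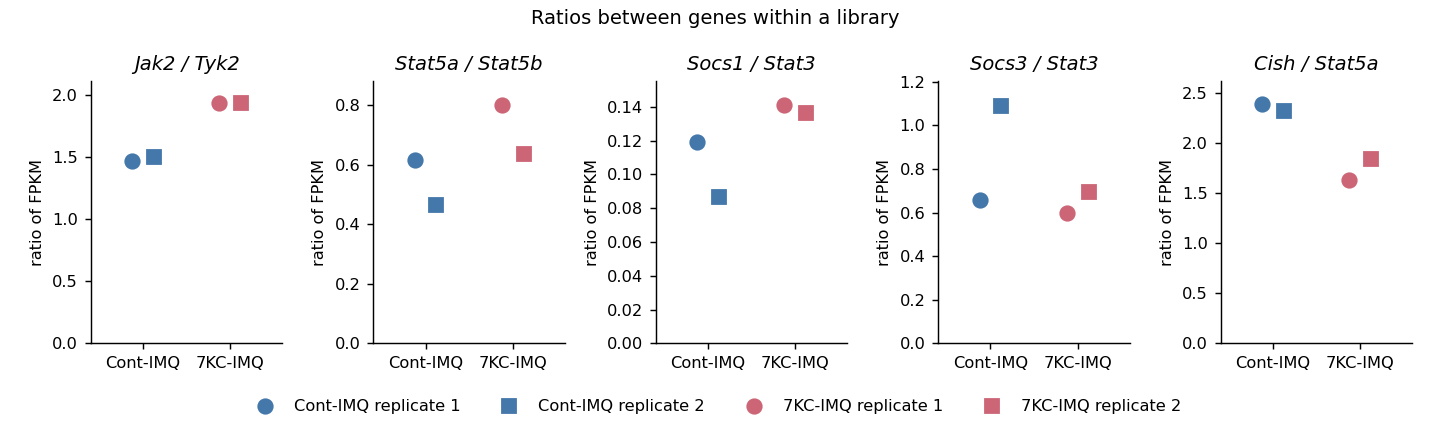
Ratios of FPKM between feedback genes and STATs, and between members of a family, in each library (vertical axes, linear and from 0). The 7KC-IMQ libraries lie apart from the Cont-IMQ libraries for *Cish* to *Stat5a* (1.63 and 1.84 against 2.39 and 2.32) and for *Jak2* to *Tyk2* (1.93 in both against 1.47 and 1.5), and *Socs3* to *Stat3* overlaps. That of *Jak2* to *Tyk2* follows from the separation of each gene in opposite directions.

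The rest of the pathway was compared through lists of genes by role, of which 140 of 162 genes passed the filter. The lists were written with earlier results of these data known, so their counts and medians are not independent of these data. Of these 140, 27 were higher and 7 lower at an unadjusted p under 0.05. Beside them, 7.5% of all genes tested were higher and 5.47% lower. After adjustment in limma 0 of the 140 passed (smallest adjusted p 0.265). The count of lower genes was 13 without Cont-IMQ replicate 2, 4 without 7KC-IMQ replicate 1 and 1 without 7KC-IMQ replicate 2. Differences between the roles were not tested. Among the ligands, 13 of the 25 tested were higher and 0 lower, with a median log2 fold change of 0.46, or 1.14 with a pseudocount of 0.1 in place of 1, 0.764 with a minimum of 1 FPKM and 0.311 with no filter. *Il19*, an IL-20 family cytokine that signals through STAT3, was at 8.71 and 5.49 FPKM in Cont-IMQ skin and at 32.6 and 35.4 in the 7KC-IMQ group (log2 fold change 2.14, adjusted p = 0.284 in limma). *Il23a*, the specific subunit of IL-23, whose receptor uses JAK2 and TYK2, was at 2.15 and 1.82 FPKM against 7.92 and 8.13 (log2 fold change 1.6, adjusted p = 0.265 in limma). *Lep*, the adipocyte hormone leptin, was at 1.64 and 1.16 FPKM against 9.75 and 3.70, a call lost without either Cont-IMQ library. It is 1 of 5 adipocyte markers, of which 2 were higher at an unadjusted p under 0.05 and whose sum overlapped (973 and 1412 FPKM against 1394 and 951). The interferons *Ifnb1* and *Ifng* were among the 16 ligands below the filter and were not tested.

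The receptor chains and the inhibitors outside the SOCS family were nearer to the background (7.5% of all genes tested higher and 5.47% lower). Of 39 receptor chains tested, 3 were higher and 1 lower, with a median log2 fold change of 0.05. *Osmr*, the oncostatin M receptor, which signals through JAK1, JAK2 and STAT3, was at 15.6 and 15.8 FPKM in Cont-IMQ skin and at 23.1 and 24.3 in the 7KC-IMQ group (log2 fold change 0.56, adjusted p = 0.331 in limma). *Il4ra*, the chain on which STAT6 docks, was at 20.6 and 22.3 FPKM against 31.3 and 35.5, a log2 fold change of 0.61 (adjusted p = 0.352 in limma) beside a *Stat6* at 0.05. *Il15ra*, the specific chain for IL-15, had a log2 fold change of 0.44 (0.265 without Cont-IMQ replicate 2), and *Il6ra*, the specific chain for IL-6, was lower at 18.8 and 17.7 FPKM in the 7KC-IMQ group against 24.8 and 22.2. Of 14 other negative regulators, such as phosphatases and PIAS proteins, 0 were higher and 1 was lower. That gene was *Pias3*, an inhibitor of STAT3, at 10.4 and 8.47 FPKM in Cont-IMQ skin and at 7.50 and 6.19 in the 7KC-IMQ group (log2 fold change -0.41, adjusted p = 0.374 in limma). The call of *Pias3* was lost on leaving out any library but Cont-IMQ replicate 2, that of *Il6ra* likewise, and that of *Il15ra* without either 7KC-IMQ library. With no filter the call of *Pias3* was also lost (unadjusted p = 0.0548 in limma).

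Genes known as targets of STATs or of interferons were counted by list at an unadjusted p under 0.05 in limma. At that threshold 7.5% of all genes tested were higher and 5.47% lower. Of 19 STAT3 targets tested, 8 were higher and 1 lower, with a median log2 fold change of 0.35, which was 0.208 without Cont-IMQ replicate 1, 0.501 without Cont-IMQ replicate 2 and 0.232 without 7KC-IMQ replicate 2. *Lcn2*, an iron-binding protein of inflamed epidermis and neutrophils, was at 125 and 110 FPKM in Cont-IMQ skin and at 273 and 372 in the 7KC-IMQ group (log2 fold change 1.43, adjusted p = 0.331 in limma). *Timp1*, an inhibitor of matrix metalloproteinases, had a log2 fold change of 1.26 and *Bcl3*, a co-regulator of NF-κB, of 0.76, while *Pim3*, a kinase that supports cell survival, was the lower one at -0.25, a call lost without Cont-IMQ replicate 2 (unadjusted p = 0.146 in limma) or either 7KC-IMQ library. Changes in processing also lost the call of *Pim3*, namely a minimum of 1 FPKM and a fit that ignores the variance trend (unadjusted p = 0.0529 and 0.0714 in limma). Several of these STAT3 targets are also induced by other pathways, NF-κB among them. Of 11 STAT6 targets tested, 0 were higher and 3 lower, namely *Arg1* at -0.89, *Clec10a* at -0.49 and *Chil3* at -0.46 on the log2 scale, all 3 known from alternatively activated macrophages. *Mrc1* and *Retnla*, known from the same cells, had 0.09 and 0.11, and the median of the list was 0.004 (-0.283 without Cont-IMQ replicate 2 and -0.289 without 7KC-IMQ replicate 1). The call of *Chil3* was lost without Cont-IMQ replicate 2 and without either 7KC-IMQ library, and that of *Clec10a* without either 7KC-IMQ library. That of *Chil3* was also lost with a minimum of 1 FPKM and after quantile normalization (unadjusted p = 0.07 and 0.0575 in limma). The macrophage and monocyte markers summed to 947 and 1153 FPKM in Cont-IMQ skin and to 904 and 958 in the 7KC-IMQ group, with overlap, 1 of the 9 being lower and 0 higher at an unadjusted p under 0.05, and none was at 0. Their part in the STAT6 target values was not tested. Of 23 interferon targets tested, 3 were higher (*Cxcl9* at 0.61, *Oas2* at 0.51 and *Psmb9* at 0.33) and 1 lower (*Irf7* at -0.31), with a median of 0.17 that was -0.104 without Cont-IMQ replicate 2. The call of *Psmb9* was lost without that library (unadjusted p = 0.0811 in limma) or either 7KC-IMQ library, and that of *Irf7* without Cont-IMQ replicate 1 or 7KC-IMQ replicate 2. The adjusted p-values in limma for all these targets were between 0.331 and 0.997.

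**Figure D4:**
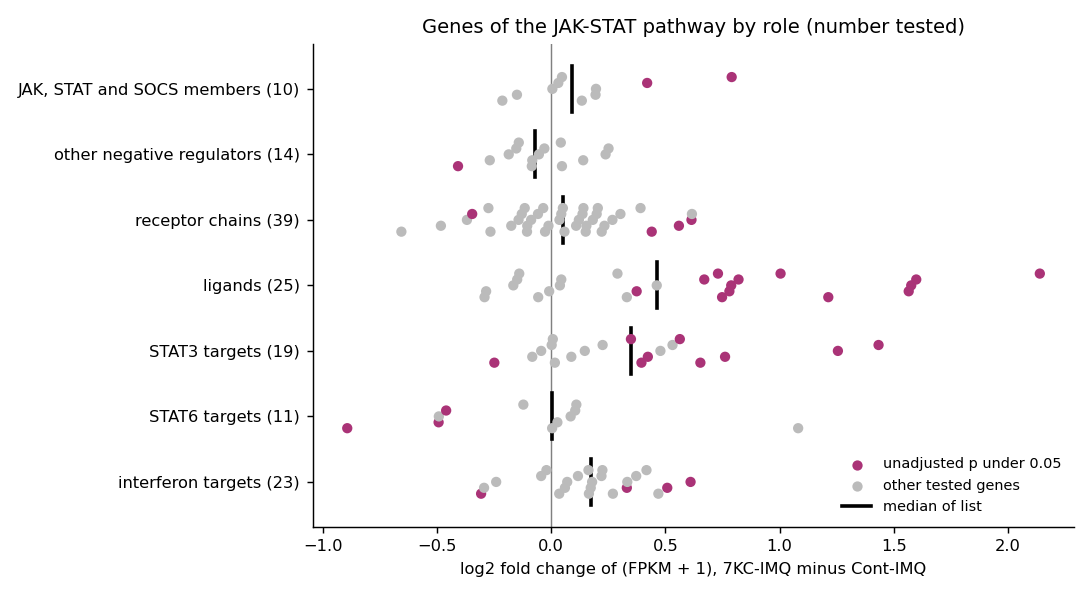
Log2 fold change (horizontal axis, 7KC-IMQ against Cont-IMQ on the log2(FPKM + 1) scale) of every gene tested in each role of the pathway, with the number of genes in brackets and a line at each list's median. Coloured points have an unadjusted p under 0.05. The ligands (median 0.46) and the STAT3 targets (0.35) sit furthest to the right, and the 10 JAK, STAT and SOCS genes (0.09) lie near the median of all genes. The lists were written with earlier results of these data known.

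Over the 4 libraries, the pathway genes whose levels were most like that of *Stat3* were *Psmb9* (Pearson r of 0.996 in log2(FPKM + 1)), *Il13ra1* (0.991), *Il15ra* (0.986) and *Timp1* (0.978). Of all 15896 genes tested, 66 had an r at least as high as *Psmb9* and 380 at least as high as *Timp1*. They describe the order of the libraries, in which Cont-IMQ replicate 2 was lowest.

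Markers of the cells that could carry these transcripts were compared in the same way. For *Jak3*, mainly a kinase of lymphocytes, the 8 T cell markers that passed the filter had a median log2 fold change of -0.02. The groups did not overlap in 2 higher and 2 lower, beside 23.9% and 22.9% of all genes tested. *Cd3e* (3.76 and 3.05 FPKM in Cont-IMQ skin, 2.47 and 2.36 in the 7KC-IMQ group) and *Cd3g* (10.1 and 9.61 against 7.62 and 5.59) were lower, whereas *Cd3d* of the same receptor complex was at 1.45 and 1.46 against 1.57 and 1.47. The sum of the 10 T cell markers was higher, at 96.1 and 97.7 FPKM against 84.3 and 75.6, because *Thy1*, which other skin cells also express, makes up most of it. The 7 neutrophil markers in the files summed to 66.2 and 86.2 FPKM in Cont-IMQ skin and to 77.2 and 83.9 in the 7KC-IMQ group, with 2 higher and 0 lower. For *Stat3* and *Socs1*, the 8 keratinocyte markers summed to 29210 and 20760 FPKM against 23300 and 25700, with 0 of the 8 past an unadjusted p of 0.05 in limma, and Cont-IMQ replicate 2 had the lowest value of the sum as it had of *Stat3* and *Socs1*. Of the 4 endothelial markers, 3 were lower at an unadjusted p under 0.05 in limma, beside 5.47% of all genes tested. The sum of the 4 was 40.8 and 46.1 FPKM against 35.6 and 33.6. The sums of the Langerhans and dendritic cell (26.3 to 35.2 FPKM), fibroblast (1938 to 2677) and red blood cell markers (6.74 to 27.0) overlapped between the groups with 0 calls, as did the hair follicle markers, and 1 skeletal muscle marker was higher and 1 lower. None of the markers in the files was at exactly 0 in any library, but some were close to it. *Hba-a2* was at 0.03 FPKM in every library, and *Hbb-bs* at 0.004 in all but Cont-IMQ replicate 1 (8.32). The part of the markers in the values of the 10 genes was not tested.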

How the data were processed

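RNA of dorsal skin from 4 samples was sequenced (TruSeq stranded mRNA, 75-base single-end reads). According to the submitters' processing notes, the authors used TopHat2 2.1.1, Bowtie2 2.2.8, SAMtools 0.1.18 and Cuffdiff 2.2.1 with mm10. The study's methods give other versions of the mapping tools and name Cufflinks for FPKM, and which were used for the files was not settled. The deposited values are FPKM per gene symbol, that is fragments scaled to exon length and to the mapped fragments of the library. The annotation, the use of strand and the treatment of reads that fit several genes are not given in the sources used here.

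From the FPKM, log2(FPKM + 1) was computed, so fold changes of low genes are understated. The 15896 genes whose FPKM averaged 0.1 or more over the libraries were compared by limma 3.58.1 in R 4.3.3 (lmFit, eBayes with a variance trend, 2 against 2 libraries, Benjamini-Hochberg adjustment over all genes tested, 95% intervals). The steps were tested on simulated data. Files hold no counts. Depth was estimated as the number of reads that brought the low values of genes with 1 annotated transcript, after taking 210 bases off its length, closest to whole reads, and 69.7% to 73.3% came within 0.1 of a whole read (20% by chance). Coordinates and shared 75-base windows came from GENCODE M21 (GRCm38, also called mm10), in which 23310 of 24346 symbols were found.

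The 10 genes, the lists by role and the cell markers were chosen with earlier results of these data known. In each list, genes whose groups did not overlap were named where the unadjusted p was under 0.05 and the mean was 1 FPKM or more, at most 3 per direction, and for *Stat3* the 5 list genes with the highest r above the same mean. Other STAT and SOCS genes were also named, 1 gene that these rules name is not reported here, and the cell markers, *Mrc1*, *Retnla*, the ligands below the filter and the overlapping genes named beside them were chosen after their values were seen. Alternatives were a pseudocount of 0.1, a minimum of 1 FPKM or no filter, scaling by median ratios or quantiles, a fit that ignores the variance trend, a block on replicate number, and each library left out.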

Additional observations from a re-analysis of the deposited data

How the results depend on the processing

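The genes at an unadjusted p under 0.05 in limma were 1192 higher and 869 lower, and leaving out 1 library gave between 333 and 1190 higher and between 282 and 1141 lower, lowest without 7KC-IMQ replicate 2. The count past adjustment, 1, was 2 with a pseudocount of 0.1 and between 1 and 9 on leaving out a library. Of the 10 genes, the 2 that were higher (*Stat3* and *Socs1*) became 0 without either 7KC-IMQ library (range 0 to 2), and the count of lower genes was between 0 and 1, the 1 being *Cish* without Cont-IMQ replicate 2. In the lists by role, 27 were higher and 7 lower. The lower count was 11 with the replicate block and between 1 (without 7KC-IMQ replicate 2) and 13 (without Cont-IMQ replicate 2) on leaving out a library. Same-numbered libraries did not deviate together (r = 0.065 over 15896 genes). With 1 deviation per group this cannot show whether same-numbered samples were paired, and the labels do not say. The block moved no other count of calls by over 1.5 times. Quantile normalization turned *Jak1* to -0.056, *Stat6* to -0.002, *Socs3* to -0.044 and *Socs4* to 0.013 on the log2 scale, all 4 near 0. Leaving out a library gave -0.07 to 0.079 for *Jak1*, -0.082 to 0.349 for *Jak3*, -0.20 to 0.26 for *Socs3*, -0.05 to 0.48 for *Stat2*, -0.07 to 0.037 for *Socs4* and -0.11 to 0.20 for *Socs6*. In these fits 1 group has a single library, assumed to vary like the other. Of 110 values of the 10 genes under alternatives, 97 kept direction and side of the threshold. The cause of the others was not tested. For other genes, 28 values lost and 2 gained an unadjusted p under 0.05 and 6 turned direction, and 15 values of list medians moved by more than the spread. Depth is known only as an estimate from the FPKM, and its part in the spread was not tested.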
